A study of Mus musculus with 6 samples.

Results

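The 9 SOX genes Sox2, Sox4, Sox6, Sox7, Sox9, Sox11, Sox13, Sox15 and Sox21 were followed in mouse esophagus and stomach organoids. Members were all probes, other than control probes, whose gene name on the array was one of these 9. They were 13 probes on 22 spots, out of 55681 probes under 34298 gene names. Sox4 had 3 probes, Sox11 and Sox21 had 2 each, and the other 6 genes had 1 each.

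Gene expression was measured on 6 single-color Agilent mouse arrays, 3 of esophagus organoids and 3 of stomach organoids. By the mouse numbers in the sample labels, mice 1, 2 and 4 each gave 1 organoid culture of either tissue, and RNA was taken at passage 0. The harvest was on day 7 for the stomach culture of mouse 4 and on day 8 for the other 5 cultures. All 6 cultures are labeled as controls. The labels give no genotype, strain or age, and the study's methods name wild-type C57BL/6 females among its animals.

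Both cultures received EGF, noggin, FGF-10, nicotinamide, N-acetylcysteine, a TGF-beta receptor kinase inhibitor and a ROCK inhibitor. Forskolin was added to the esophagus medium, and conditioned medium with WNT3A and R-spondin1, plus gastrin, to the stomach medium. By the study's methods, esophagus organoids were seeded from minced, enzyme-digested esophagus tissue, with no step named that separates the epithelium, and stomach organoids from glands of the corpus. Tissue, medium and starting material therefore changed together in each comparison and cannot be told apart.

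Between 45.5% and 51.1% of the non-control spots of an array were well above background, and no spot was saturated. Of 7 squamous markers, all 7 were higher in the esophagus organoids (the basal keratin Krt5 lay between 17.07 and 17.08 there and between 4.85 and 5.39 in the stomach organoids, as log2 intensities, and for its partner Krt14 the log2 difference, esophagus minus stomach, was 11.30). Of 12 columnar gastric markers, all 12 were higher in the stomach organoids, with the largest measured differences for the trefoil peptides Tff2 (-12.80, and -11.63 at the smallest over the alternatives) and Tff1 (-12.34). Tff2 was well above background on no esophagus array, so that its fold is a bound of at least 6348. The array of the esophagus organoids of mouse 4 was alone on a second slide with a scan of its own, the other 5 arrays sharing 1 slide. A fit with the slide as a term therefore gives the same differences as leaving that array out.

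SOX proteins bind DNA in the minor groove through an HMG box, a domain they share with SRY, the factor that starts testis formation, and they bend the DNA they bind. Members are sorted into groups by the sequence of that box, and they often act with partner factors, so that a SOX protein can drive different genes in different cells. In the gut tube, Sox2 is known for its role in the foregut, where it is needed for the esophagus to separate from the trachea and marks stem cells of the stomach and esophagus. Sox9 marks progenitors of several endoderm organs and is known in the intestine as a gene that WNT signaling turns on.

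Each probe of this array is a 60-base oligonucleotide, and 2 of the SOX probes hold the sequence of the conserved end of the HMG box. Other parts of the box were not searched for. They are shown whole, because the box is the part that the members share. Capitals mark the stretch that translates into the conserved end of the box, bases 3 to 26 of the Sox15 probe (chr11:69469212-69469271, plus strand, mm9) and bases 27 to 50 of the Sox4 probe (chr13:29044482-29044541, minus strand, mm9).
Sox15 A_55_P2094691: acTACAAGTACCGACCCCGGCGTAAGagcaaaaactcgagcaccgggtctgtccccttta
Sox4 A_55_P2131899: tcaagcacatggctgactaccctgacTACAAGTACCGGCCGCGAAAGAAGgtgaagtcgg
These probes had a longest identical run of 13 bases and matched at 61.1% of 36 bases in their best ungapped overlap. No pair of probes for different SOX genes shared a longer run.

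The other probes of the genes that were called do not reach that stretch, and the first 30 bases of each are given with the strand of the gene, so that each value below can be tied to its target.
Sox2 A_52_P307739, chr3:34550773-34550832, plus strand: tggcaatcaaatgtccattgtttataagct
Sox6 A_52_P475356, chr7:122615418-122615477, minus strand: ttgtatttgccatgtacaattctgaattac
Sox7 A_51_P476018, chr14:64569419-64569478, plus strand: agtcccggatggatattaataatctcgtga
Sox9 A_52_P214630, chr11:112648809-112648868, plus strand: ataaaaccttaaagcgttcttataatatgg
Sox4 A_55_P2121608, chr13:29040826-29040885, minus strand: aatcctgtccgtcactgcctgtcaggttgt
Sox4 A_55_P2121613, chr13:29042856-29042915, minus strand: ttttctgcaatgaagacagaaagaaggctc
Coordinates are those of the array files, in build mm9, and no annotation of that build was used, so exon and UTR positions are not given.

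Differences below are esophagus minus stomach on the log2 scale of the authors' normalized intensities, from limma fitted over all probes, and a probe was called at an adjusted p under 0.05. Of the 13 SOX probes, 7 were called, against 12.2% of all probes. Of the 13, 11 rose well above background on each of the 3 arrays of at least 1 tissue, and in a fit limited to the 25859 probes that did so, 26.8% were called. Higher in the esophagus organoids were 4 of the 13, against 5.94% of all probes, and higher in the stomach organoids were 3 of the 13, against 6.22%. By the brightest probe of each gene, Sox2, Sox6, Sox7 and Sox15 rose toward the esophagus, Sox4 and Sox9 rose toward the stomach, and Sox11, Sox13 and Sox21 were not called. That made 6 of 9 genes, against 14.9% of all gene names. These 9 were chosen with earlier results of these data known, and 1 of the 11 other SOX genes was called. The share of the 9 is therefore not that of the whole SOX family. The groups did not overlap for 8 of the 13 probes, against 28.6% of all probes measured on the 6 arrays. Fewer cells that make a transcript and less transcript per cell cannot be told apart in these bulk cultures.

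**Figure D1:**
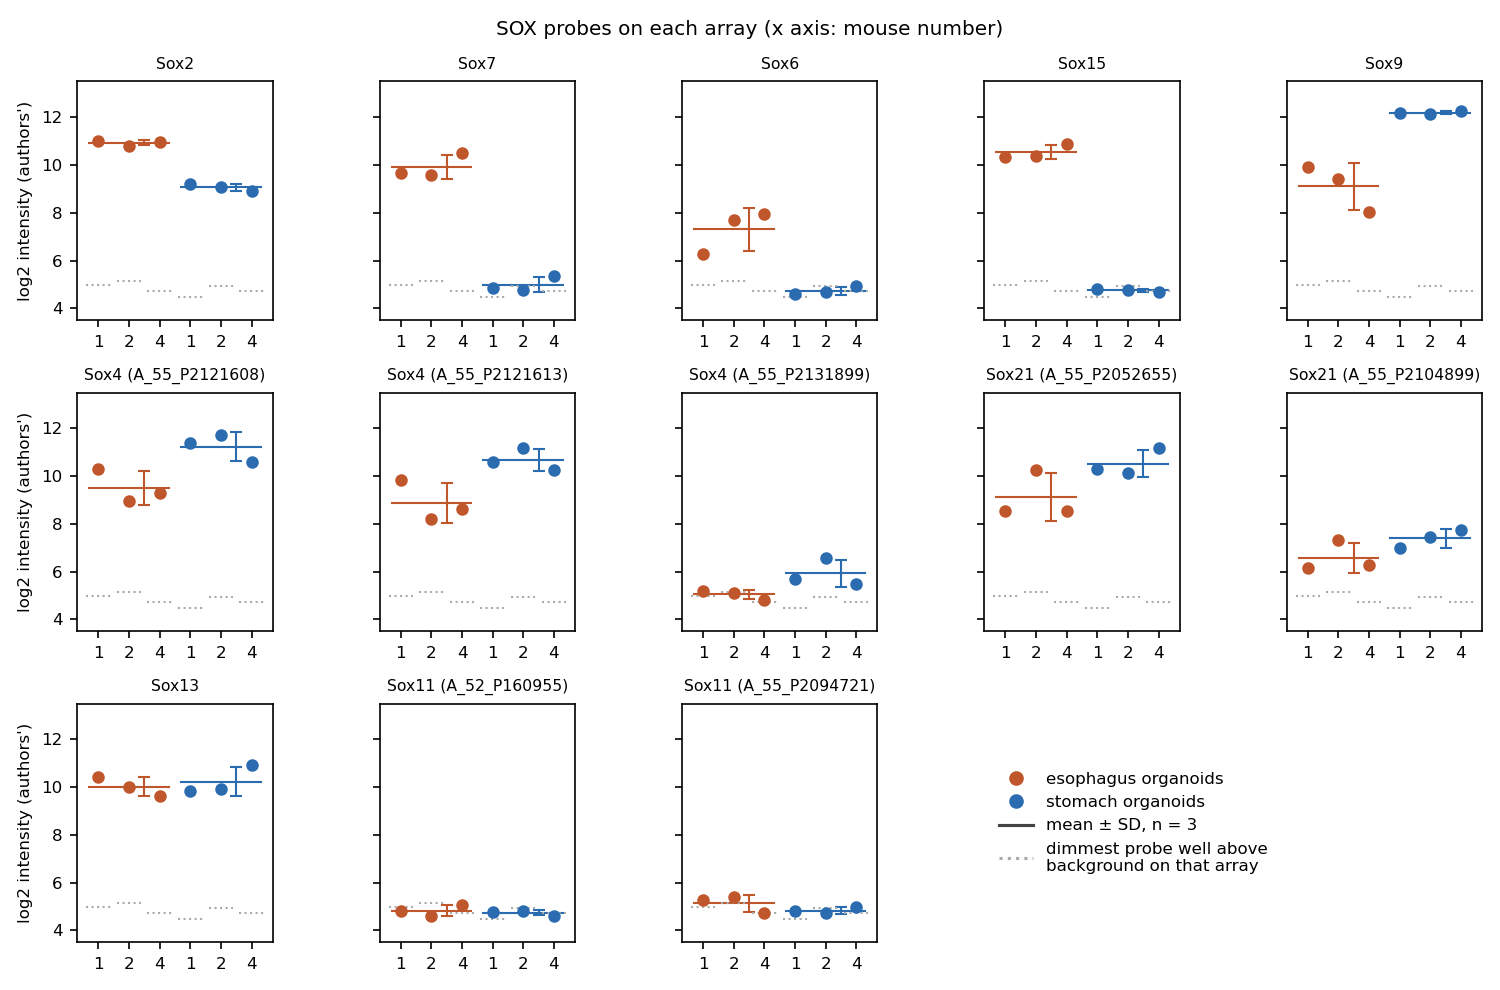
Log2 intensity (authors' normalized values) of each of the 13 SOX probes on each array, esophagus organoids in orange and stomach organoids in blue, with the mean and SD of 3 arrays; dotted lines give the dimmest probe well above background on that array. Sox15 and Sox6 lay near those lines in all 3 stomach arrays. Sox9 lay near 12.20 in all 3 stomach arrays and spread from 8.02 to 9.90 in the esophagus arrays. Both Sox11 probes lay between 4.63 and 5.38, above or below the line of an array.

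Sox2, of group B, was present in both organoids and higher in those of the esophagus. Its log2 intensity was 11.01, 10.82 and 10.99 in the esophagus organoids of mice 1, 2 and 4, and 9.21, 9.07 and 8.93 in the stomach organoids. All esophagus values lay above all stomach values, with an SD of 0.11 among esophagus and 0.14 among stomach organoids (n = 3 each). The difference was 1.87 (SE 0.149, 95% interval 1.52 to 2.21, 3.65-fold, adjusted p = 0.000129). It was the least variable of the called SOX genes across settings, at 1.75 to 2.01 in 15 alternatives.

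Sox2ot, the noncoding transcript that overlaps Sox2, moved the same way. Its values were 7.57, 6.63 and 6.98 in the esophagus organoids and 5.92, 5.59 and 4.99 in the stomach organoids. The difference was 1.56 (SE 0.307, adjusted p = 0.0143), and without the stomach array of mouse 2 it was 1.60 with an adjusted p of 0.056. The Sox2ot probe (chr3:34579564-34579623) lies on the strand of Sox2, apart from the Sox2 probe.

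Sox21, of the other branch of group B and known as a counterplayer of Sox2 in neural and airway cells, was measured by 2 probes, 377 bases apart on chromosome 14. The brighter probe gave 8.53, 10.26 and 8.55 in the esophagus organoids and 10.28, 10.12 and 11.17 in the stomach organoids. The dimmer gave 6.14, 7.31 and 6.26 against 6.99, 7.44 and 7.76. On both probes the esophagus organoids of mouse 2 stood in the range of the stomach organoids, and those of mice 1 and 4 stood below it, so the groups overlapped. The differences were -1.41 (SE 0.495, 95% interval -2.56 to -0.26, adjusted p = 0.125) and -0.83 (SE 0.339, 95% interval -1.62 to -0.04, adjusted p = 0.185), and neither was called. Without the esophagus array of mouse 2 they were -1.98 (adjusted p = 0.012) and -1.20 (adjusted p = 0.0326), so that 1 library decides this call.

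Sox7, of group F and known from endothelial and early endoderm cells, was bright in the esophagus organoids and near background in those of the stomach. It read 9.68, 9.57 and 10.49 in the esophagus organoids. In the stomach organoids it read 4.85, 4.79 and 5.36, and was well above background in 1 of the 3. The measured difference was 4.91 (SE 0.279, adjusted p = 1.97e-05). Over the alternatives it ran from 3.88, with a normexp offset of 50, to 7.06, with the software's background-subtracted signal.

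Sox17, another gene of group F, which specifies endoderm and is also made in vessels, was the 1 gene called among the 11 other SOX genes, and it ran opposite to Sox7. Its brighter probe read 9.08, 8.92 and 9.69 in the stomach organoids and 4.59, 4.42 and 4.36 in the esophagus organoids, where no array had it well above background. The stomach level of Sox17 exceeded the esophagus level at least 19.4-fold (measured difference -4.78, SE 0.219, adjusted p = 6.03e-06), and its dimmer probe, also well above background on no esophagus array, was called the same way, at least 7.85-fold (measured difference -3.13, adjusted p = 6.99e-05, and -2.15 at the smallest over the alternatives). Over the alternatives the difference of the brighter probe ran from -7.31 to -3.44, the smaller with a normexp offset of 50. Sox7 and Sox17 each stood high in the organoid where the other was at or near background. The third group F gene, Sox18, was well above background on none of the 6 arrays.

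Because Sox7 and Sox17 are also vessel genes, the endothelial list was read beside them. Of its 9 genes, Cdh5, Emcn, Cldn5 and Erg were not well above background on any of the 6 arrays. Kdr had the brightest probe of the list, at 9.10, 9.12 and 8.44 in the esophagus and 8.63, 8.76 and 8.52 in the stomach organoids (difference 0.25, adjusted p = 0.565), and its other probe was well above background on no array. Summed over the 9 genes, the level of the list was 9.23 to 9.68 in the esophagus organoids and 9.43 to 9.45 in the stomach organoids, on the log2 scale. The brightest Kdr probe made most of that sum and genes near background added to it, so it does not measure the share of endothelial cells. Of the 9 genes, 1 was called, against 14.9% of all gene names. Vwf, well above background on no esophagus array, was the 1 gene called, at least 1.55-fold toward the stomach (measured difference -0.63, adjusted p = 0.0302), and it was not called under 7 of 15 alternatives, where its adjusted p reached 0.124. Pecam1 read 5.80, 5.98 and 5.99 against 6.03, 5.94 and 6.37. The part of endothelial cells in the levels of Sox7 and Sox17 was not tested.

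Sox6 and Sox13 belong to group D, whose members have no activation or repression domain of their own and pair with each other through a coiled coil. They behaved differently. Sox6, known for its part in cartilage, muscle and red cells, read 6.30, 7.70 and 7.94 in the esophagus organoids. In the stomach organoids it read 4.63, 4.67 and 4.94 and was well above background on no array. Its level in the esophagus organoids was at least 5.55-fold higher (measured difference 2.57, SE 0.398, adjusted p = 0.00456), with the array of mouse 1 the lowest of the 3. Over the alternatives the difference ran from 1.70, with a normexp offset of 50, to 5.28.

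Sox13, known as a partner of TCF factors and a regulator of a T cell lineage, read 10.44, 9.99 and 9.63 in the esophagus organoids and 9.84, 9.92 and 10.94 in the stomach organoids. Both groups were well above background and overlapped. The difference was -0.22 (SE 0.334, adjusted p = 0.778), with a 95% interval from -0.99 to 0.56, and without the stomach array of mouse 4 it was 0.14 (adjusted p = 0.823).

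For Sox5, the third gene of group D, the brightest of 3 probes was left out of any reading of Sox5, because its sequence is a GGA repeat with 16 GGA units in 60 bases, of which the array files place 27 bases on chromosome 6 (chr6:143776945-143776971). Capitals mark the repeat units in its first 30 bases.
Sox5 A_55_P2156905: GGAGGAGGAGGAagaGGAGGAGGAGGAaga
This probe read 12.14 to 12.49 in the esophagus organoids and 12.26 to 14.05 in the stomach organoids (difference -1.01, adjusted p = 0.203, and -1.57 with an adjusted p of 0.00227 without the stomach array of mouse 4). The other 2 Sox5 probes were well above background on no array. Among the probes of the SOX family, this one held the most GGA units. Other kinds of repeat, and matches elsewhere in the genome, were not looked for in any SOX probe.

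Sox15, the sole gene of group G in mammals and known from trophoblast and muscle precursor cells, gave the largest difference of the 13 SOX probes. The HMG box probe shown above read 10.35, 10.40 and 10.87 in the esophagus organoids. In the stomach organoids it read 4.80, 4.79 and 4.67, and no array had it well above background. The esophagus level of Sox15 exceeded the stomach level at least 52.5-fold (measured difference 5.79, SE 0.180, adjusted p = 7.71e-07). Leaving out any 1 array moved the difference between 5.62 and 5.88. With the software's background-subtracted signal it was 8.96, and with a normexp offset of 50 it was 4.63, so the bounds given here hold for the authors' values and not for each background setting.

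Sox9, of group E, was the SOX gene with the largest difference toward the stomach among the 9. It read 12.17, 12.16 and 12.27 in the stomach organoids and 9.90, 9.42 and 8.02 in the esophagus organoids. The groups did not overlap, and the SD was 0.06 among stomach and 0.98 among esophagus organoids (n = 3 each). The difference was -3.09 (SE 0.429, 95% interval -4.08 to -2.09, 8.50-fold, adjusted p = 0.00263). The lowest value came from the array on the second slide, and within the first slide the difference was -2.54 (adjusted p = 0.000212).

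The Sox9 probe was printed on 10 spots of each array. The SD over the 10 spots of an array ranged from 0.15 to 0.25. On the esophagus array of mouse 4 the spots lay between 7.73 and 8.38, and on that of mouse 2 between 9.24 and 9.70. The spread between spots covers neither labeling nor hybridization nor the slide, and mouse 4's array was on the second slide.

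Sox4 and Sox11 belong to group C, factors with a strong activation domain that are known in progenitors and neurons. The 3 Sox4 probes were all lower in the esophagus organoids. The brightest, nearest the transcript's end, read 10.31, 8.96 and 9.29 in the esophagus and 11.40, 11.73 and 10.57 in the stomach organoids. The second, 1970 bases away, read 9.83, 8.20 and 8.63 against 10.59, 11.18 and 10.26. Esophagus organoids of mouse 1 were the highest of their group on both probes, and the groups did not overlap on either.

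The differences of these Sox4 probes were -1.72 (SE 0.406, adjusted p = 0.0313) and -1.79 (SE 0.422, adjusted p = 0.0309). The HMG box probe, 1566 bases further on, read 5.21, 5.11 and 4.83 in the esophagus organoids, well above background on no array, and 5.69, 6.58 and 5.50 in the stomach organoids, well above background on all 3. In the stomach organoids it stood at least 1.83-fold higher but was not called (measured difference -0.88, SE 0.286, adjusted p = 0.0995). Both calls on Sox4 were lost, with adjusted p-values between 0.0793 and 0.127, when the esophagus array of mouse 2 or 4 or the stomach array of mouse 1 or 2 was left out. They were also lost with a normexp offset of 50 (adjusted p = 0.0701 and 0.0636). On the 5 arrays of the first slide the differences were -1.60 (adjusted p = 0.0797) and -1.66 (adjusted p = 0.0793).

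Sox11 lay at or near background in both organoids. Its 2 probes read between 4.63 and 5.38 over the 6 arrays, and 1 esophagus array had 1 of them well above background. The differences were 0.09 (95% interval -0.29 to 0.48, adjusted p = 0.813) and 0.30 (95% interval -0.17 to 0.76, adjusted p = 0.441). At this signal a difference in Sox11 could not be seen, which does not show that the gene is silent.

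**Figure D2:**
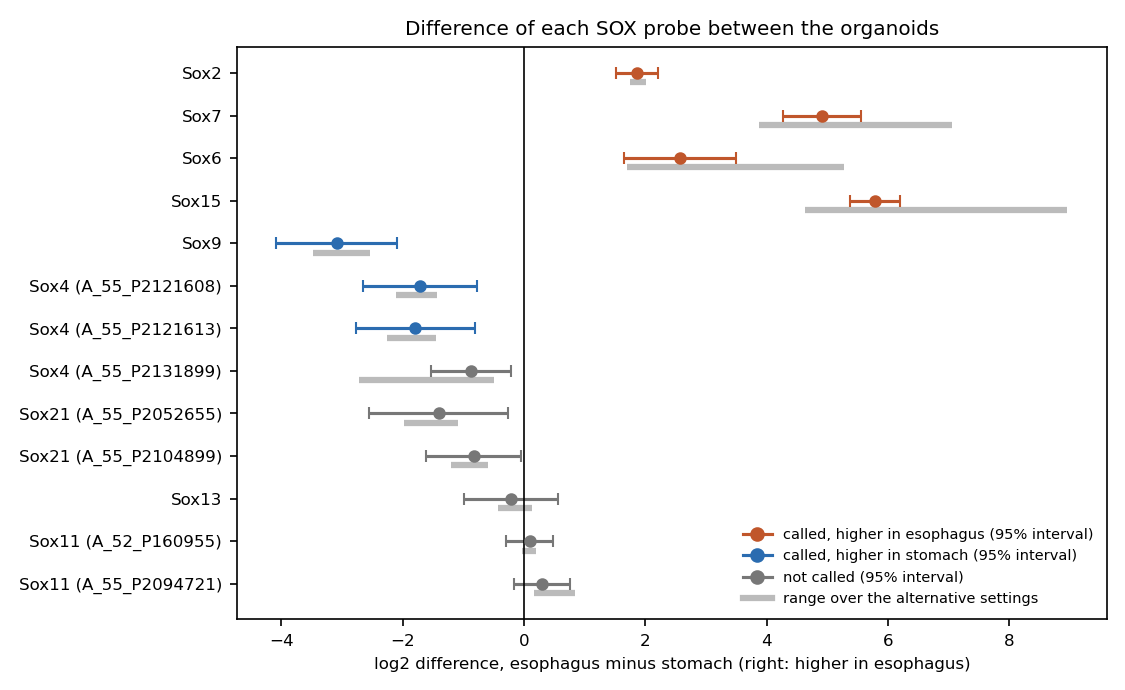
Log2 difference (esophagus minus stomach) of each SOX probe with its 95% interval, colored by call, and in gray the range over the alternative settings. The lowest values over the settings were 1.75 for Sox2, 1.70 for Sox6, 3.88 for Sox7 and 4.63 for Sox15, Sox9 lay between -3.48 and -2.54, and the ranges of Sox13 and 1 Sox11 probe crossed 0.

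Read against the differences of all probes on the authors' values, Sox2 stood at the 97.9 percentile, Sox9 at 1.20 and the called Sox4 probes at 2.73 and 2.89. Sox21 stood at 3.80 and 6.97 without being called, and Sox13 at 23.2.

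**Figure D3:**
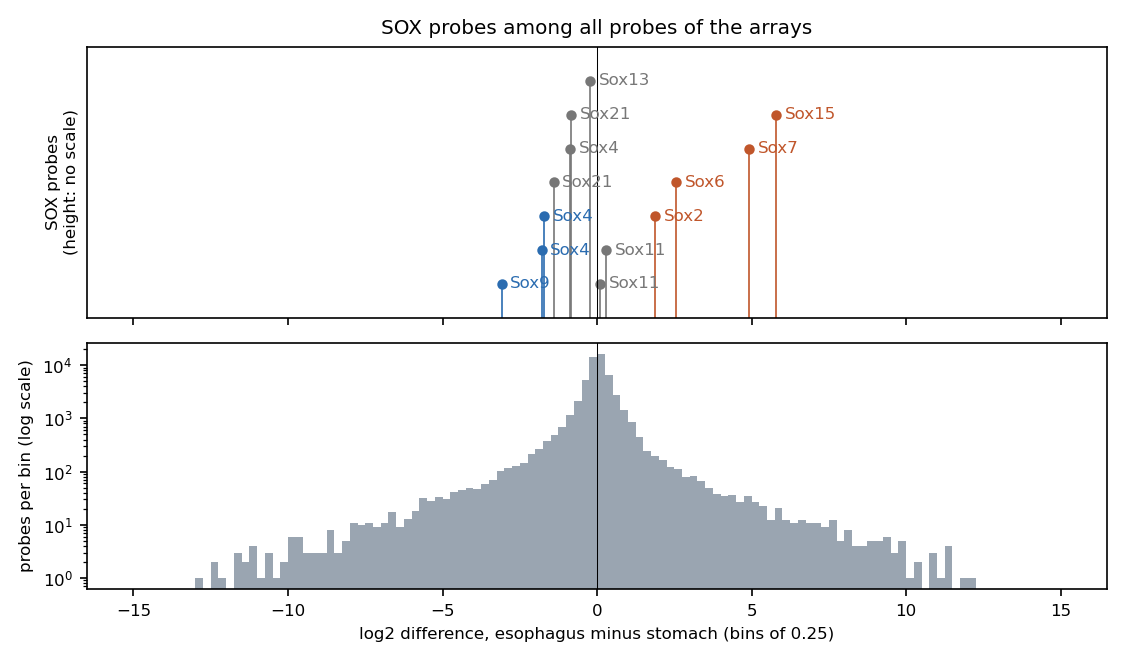
Histogram of the log2 differences (esophagus minus stomach) of all 55681 probes in bins of 0.25, with a log count axis, and above it the 13 SOX probes at their own differences, orange where called higher in the esophagus, blue in the stomach, gray where not called. Sox15 at 5.79 and Sox9 at -3.09 are the outermost SOX probes.

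Of the 11 other SOX genes, Sox3, Sox8, Sox10, Sox18, Sox30 and Sry were marked well above background on none of the 6 arrays, and Sox1, Sox5, Sox12 and Sox14 were not called. Of 7 TCF/LEF genes and other HMG-box relatives, 1 was called, against 14.9% of all gene names. That was Tcf7l1, a TCF known mainly as a repressor of WNT targets, at 8.98, 9.12 and 8.58 in the esophagus and 7.29, 7.16 and 7.13 in the stomach organoids (difference 1.70, SE 0.178, adjusted p = 0.00058). Tcf7l2 and Tcf7 lay toward the stomach by their brightest probes and were not called (differences -1.11 and -0.99, adjusted p = 0.061 and 0.144 by limma). Lef1 was marked well above background on no array.

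Transcription factors of the squamous and the columnar lineage give the setting of the SOX values. Of 11 squamous factors, 7 were called toward the esophagus, and 14.9% of all gene names were called in either direction. The median difference was 2.47 over the 11 against 0.03 over all gene names. The largest were Tfap2a, at 12.70 to 13.10 against 5.12 to 5.30 (difference 7.70, adjusted p = 1.15e-07), and Tfap2c, at least 28.7-fold higher (adjusted p = 9.45e-07, with a difference down to 3.71 over the alternatives). The brightest Trp63 probe went the other way (difference -1.22, adjusted p = 0.0249, not called under 6 of 15 alternatives), while the other 3 Trp63 probes were called higher in the esophagus organoids. Of 13 columnar factors, 10 rose toward the stomach, with a median difference of -4.81 over the 13, led by Hnf4a, at least 810-fold (adjusted p = 8.28e-08), and Gata4, at least 225-fold (adjusted p = 1.05e-06). Over the alternatives their smallest differences were -8.70 and -6.83.

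Genes known as targets of SOX factors in other tissues were read beside the 14.9% called over all gene names. Of 10 cartilage genes that Sox5, Sox6 and Sox9 drive in chondrocytes, among them Col2a1 and Acan, none was called in limma, and 6 were marked well above background on no array. Matn3 was the 1 with an unadjusted p under 0.05. Of 4 genes known as targets of Sox4 and Sox11, 2 were called in opposite directions. Tubb3, a neuronal tubulin, was higher in the esophagus organoids (difference 4.37, SE 0.610, adjusted p = 0.00271), and Tead2, a partner of YAP, in the stomach organoids (difference -1.04, SE 0.227, adjusted p = 0.0228, not called with the background-subtracted signal at 0.125, nor without the esophagus array of mouse 2 at 0.0674, the stomach array of mouse 1 at 0.0942 or that of mouse 2 at 0.0824).

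Of 8 WNT feedback targets, 5 rose toward the stomach, where the medium held WNT3A and R-spondin1. Sp5 was at least 64.6-fold and Lgr5 at least 38.6-fold higher in the stomach organoids (adjusted p = 7.20e-07 and 2.04e-05), with smallest differences of -5.02 and -4.30 over the alternatives. The part of the medium in the levels of these targets, Sox9 and Sox17 was not tested, since no culture of a tissue was on an array with the other medium.

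Among 5 genes that the study names as precursor markers beside Sox11, 2 were called higher in the esophagus organoids and 1 in the stomach organoids. Of all gene names, 14.9% were called in either direction. H19, a noncoding fetal growth gene, had a difference of 3.34 (adjusted p = 0.0108), with adjusted p-values of 0.0564 and 0.0581 without the stomach array of mouse 1 or 2 and 0.052 with a normexp offset of 50. Of its 6 probes, 2 were called. Bex1 had a difference of -4.86 (adjusted p = 2.09e-05). Sox11 itself was not measurable, as given above, so this list shows nothing about it.

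**Figure D4:**
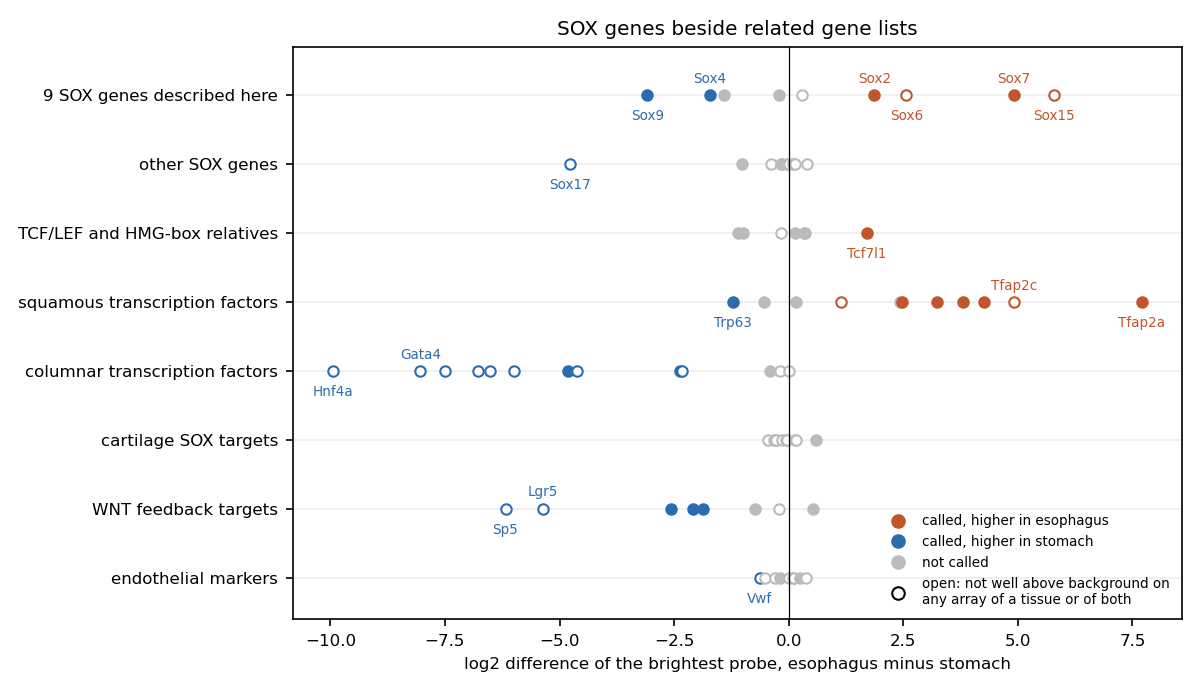
Log2 difference (esophagus minus stomach) of the brightest probe of each gene in 8 lists, 1 point a gene, colored by call, with open points for genes for which no array of a tissue, or of both, was well above background. The columnar factors lie toward the stomach with Sox9, Sox4 and Sox17, most squamous factors toward the esophagus with Sox2, Sox6, Sox7 and Sox15, and the cartilage and endothelial genes near 0.

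Markers of other cells were read for the same arrays. Of 6 fibroblast, 5 smooth muscle and 4 immune cell markers, none was called by limma. Unadjusted p-values under 0.05 were found for 1 fibroblast, 1 smooth muscle and 0 immune cell markers, by the brightest probe of each. Tagln, of the smooth muscle list, lay between 8.55 and 10.76 and was well above background on all 6 arrays. So was Cd68, of the immune list, at 14.77, 12.94 and 11.80 in the esophagus and 11.04, 11.22 and 12.36 in the stomach organoids (difference 1.63, unadjusted p = 0.0505, adjusted p = 0.211 by limma). Its other probe did not overlap between the groups (difference 1.41, unadjusted p = 0.034, adjusted p = 0.163 by limma). Cd3e, a T cell gene of the immune list, was also well above background on each array, at 7.39, 7.23 and 7.55 against 7.35, 7.97 and 8.34 (difference -0.50, unadjusted p = 0.089, adjusted p = 0.299 by limma). Of 5 tuft cell markers, Avil stood at least 28.3-fold higher in stomach organoids (adjusted p = 2.60e-05, smallest difference over the alternatives -3.84), while Trpm5, Pou2f3 and Gfi1b were marked well above background on no array. Of 5 Schwann and neural crest markers, Ngfr, which basal epithelial cells also express, stood at least 94.98-fold higher in esophagus organoids (adjusted p = 2.69e-06, smallest difference over the alternatives 5.50). Their part in the SOX values was not tested.

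Likeness of profile was measured as the root mean square difference over the 6 arrays, after centering each profile on its mean, against the brightest probes of 15634 gene names well above background on all arrays. The names nearest to Sox2 were Marcksl1, Dnaja4 and H2afy3, with root mean square differences of 0.078, 0.12 and 0.12 on the log2 scale. Nearest to Sox9 were Myh14 at 0.094 and Kifc3 at 0.19, the other being an unnamed genomic interval. Psrc1 was among the 3 names nearest to both called Sox4 probes, at 0.19 and 0.22. Zdhhc21, at 0.080, was the one named gene among the 3 nearest to Sox13. Sox21 had Dusp18 and Efnb2 nearest to its brighter probe and Id3 and Asah2 nearest to its dimmer probe, at 0.16 to 0.26. The 3 names nearest to each of these probes had none in common. All these profiles share the same 6 arrays and the contrast between the organoids.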

How the data were processed

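The authors hybridized total RNA of each culture to a single-color Agilent array (probe coordinates in mm9) and measured the spots in Feature Extraction 11.5.1.1. In the deposited scanner files are the raw mean, background and background-subtracted intensity of each spot, with flags, not normalized between arrays. The authors' deposited table holds log2 values that they background corrected and quantile normalized, and these were the values used. Its row numbers are the scanner files' spot numbers: each column correlated with its own array's intensities at a Spearman rho of 0.989 to 0.994, against at most 0.934 with another array, and a cell was empty exactly where the spot was marked as an outlier.

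Spots of a probe were averaged. In R 4.3.3, limma 3.58.1 (lmFit, eBayes, no block, two-sided) compared 3 esophagus with 3 stomach arrays, with Benjamini-Hochberg adjustment over 55681 probes, and was tested on simulated data. An exact permutation test of 3 against 3 cannot go below 0.1. A probe was well above background on an array when at least 50% of its spots carried that mark. Where it was so on no array of a tissue, the fold is a lower bound, the bright group's mean against the mean, over the dim arrays, of the higher of the probe's value and the lowest value of any probe well above background. Arrays with the same mouse number in their labels were taken to come from the same animal. Over all probes, their residuals about the tissue means had correlations of -0.00787 to 0.025. Between arrays of different numbers, the correlations were -0.0726 to 0.0405.

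All probes of the 9 genes are reported. Of the lists, counts are given, with the 2 genes of largest difference among those called. Trp63, Pecam1, Kdr, Tagln, Cd68, Cd3e, Matn3, Sox5, Tcf7 and Tcf7l2 were named after their values were seen. Some of the names nearest in profile are not reported here. The members and lists were chosen with earlier results of these data known. Alternatives were the scanner intensities with normexp (offset 16 or 50), the background-subtracted signal scaled to the 75th percentile, median centering, a filter on dim probes, trend and robust variances, the mouse or slide as a block, each array left out, and medians of spots.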

Additional observations from a re-analysis of the deposited data

How the results depend on the processing

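Over the alternatives, 175 of the values of the 13 SOX probes kept their direction and their side of the threshold, 12 lost a call, 3 gained one and 3 changed sign. The 12 lost calls are those of the 2 brighter Sox4 probes (adjusted p up to 0.127), and the calls on Sox2, Sox6, Sox7, Sox9 and Sox15 held in all 15 alternatives. The number of SOX probes called higher in the esophagus was 4 in each alternative. The number called higher in the stomach, 3, became 1 with an offset of 50 and 1 with the slide as a block. It was 4 with the background-subtracted signal. When 1 array was left out, it ranged from 1 to 3 (the 3 without the esophagus array of mouse 2 were Sox9 and both Sox21 probes). With an unadjusted p under 0.05 and a 1.5-fold change, it was 6. The share of all probes under that looser rule is not given here, so whether these 6 exceed it cannot be told. Over all probes, 6770 were called, and 4091 to 7415 with 1 array left out, the lowest without the stomach arrays of mouse 1 (4091) or mouse 2 (4152). The sign of 1 Sox11 probe turned to -0.0275 with the slide as a block and to -0.0275 without the esophagus array of mouse 4 (up to 0.1968 with another array left out), and that of Sox13 to 0.1375 without the stomach array of mouse 4 (down to -0.4267 with another left out). With the mouse as a replicate block, the pairing by mouse number changed no SOX call: calls numbered 4 toward the esophagus, 3 toward the stomach and 6153 over all probes. The background-subtracted signal scaled to the 75th percentile shifted the median of all probes to 0.19, and gave -2.72 (adjusted p = 0.024) for the HMG box probe of Sox4. Differences of dim probes depend most on the background setting, Sox6 from 1.70 to 5.28, Sox7 from 3.88 to 7.06 and Sox15 from 4.63 to 8.96. The filter on dim probes left out both Sox11 probes, so they have 14 alternatives. Of the values of the 24 recomputed list probes, 338 kept their call, 21 lost it, 1 gained one and 0 changed sign. Signal over background and the number of arrays limit what Sox11 and the stomach levels of Sox6, Sox7 and Sox15 can show.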
